A study of Mus musculus with 207 samples.

Results

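The hypothalamus of C57BL/6 mice fed a whey protein isolate (WPI) diet was compared between the highest and the lowest labelled fat level, FAT-55 and FAT-20. All 23 hypothalamus libraries of these 2 diets were used, 12 for WPI-30_FAT-55 and 11 for WPI-30_FAT-20, out of 67 hypothalamus libraries and 207 samples in the whole series. The other protein source was casein (CAS), and each protein was given at 3 fat levels, FAT-20, FAT-40 and FAT-55. Both compared groups received WPI at the same labelled protein level of 30, so the labelled difference between them is the fat level. The labels give no sex, age, feeding time or date of sampling, and they name 1 animal for each library. Those animal identifiers share a stem within sets of 2 or 3 mice, 4 stems to a diet, and the meaning of a stem is not stated. Sample numbers in the titles run in 1 block per diet, so anything done per block cannot be told apart from diet. Polyadenylation selection or ribosomal depletion is not described, and the fat source, the remaining energy and the length of feeding are not given in the sources used here.

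The hypothalamus matches food intake to body energy. Leptin from fat cells acts on its receptor in the arcuate nucleus, STAT3 is phosphorylated and moves to the nucleus, and STAT3 then induces Socs3, whose product feeds back to block the receptor. Neurons that make NPY and AgRP promote feeding and are inhibited by leptin, whereas POMC neurons restrain it. Vasopressin, encoded by Avp, is released from magnocellular neurons and holds body water, and its mRNA also marks the central clock in the suprachiasmatic nucleus.

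Values are normalised counts, that is reads per gene divided by a size factor of the library, which the authors deposited. A gene is called changed where limma gives a Benjamini-Hochberg adjusted p below 0.05 on log2(value + 1), over the 14830 genes that reach a value of 10 in 10 or more of the 67 libraries. The 23 libraries held 14.4 to 16.1 M reads assigned to genes. All 23 had reads of the hypothalamic peptide genes Pmch (normalised count 175 to 468), Hcrt (1075 to 1989), Pomc (31.7 to 2268) and Agrp (8.93 to 83.7), and of the transcription factor Nkx2-1 (130 to 490), so the labelled tissue is present in each. Of the 67 libraries 10 stood apart before any comparison was made. For each library, the deviations of the genes from their medians over the libraries were regressed on log2 transcript length and GC content together. In these 10 the slope on length was -0.96 to -0.35 log2 units per doubling of length, against -0.17 to 0.12 in the 57 others. Long transcripts were thus low and short ones high in these 10. Of these 10 libraries, 5 are among the 11 of WPI FAT-20 (replicates 1, 3, 4, 5 and 6), 2 among the 12 of WPI FAT-55 (replicates 5 and 6) and 3 are CAS FAT-20. The first principal component of all genes held 45.1% of the variance and correlated with the slope at 0.998 over the 67 libraries. Mitochondrial reads made up 2.66 to 6.43% of reads in the 10 libraries, with a median of 3.58%, against a median of 2.46% over all 67. RNA quality was not measured in the files, and its part in the results was not tested. The main results are therefore given with all libraries and without these 10, which leaves 6 libraries on FAT-20 and 10 on FAT-55, a choice made after seeing the data.

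**Figure D1:**
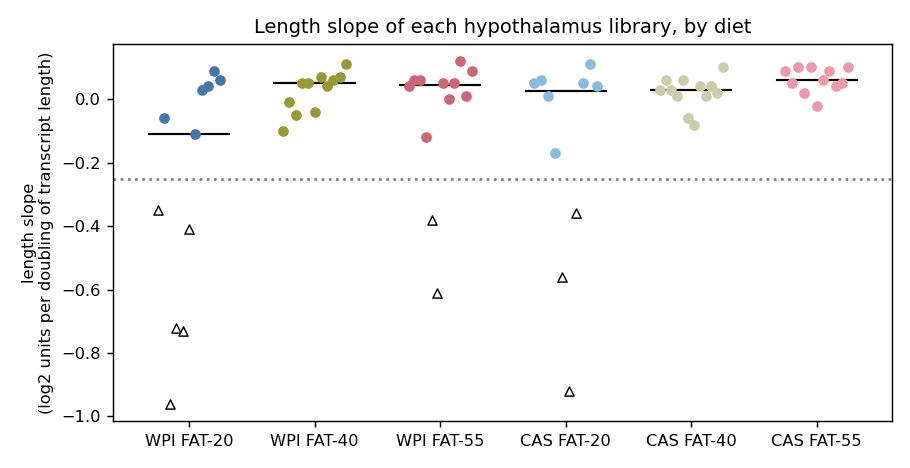
Length slope of each of the 67 hypothalamus libraries (y axis, log2 units per doubling of transcript length) by diet (x axis), with 1 point for each library and a dotted line at -0.25. The 10 libraries under the line span -0.96 to -0.35 and lie on WPI FAT-20 (5), WPI FAT-55 (2) and CAS FAT-20 (3).

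At FAT-55 the hypothalamus held more Stat3, Socs3, Fos and Serpina3n RNA and less Hnrnpab, Tmem158, Vstm2l, Pcsk1n, Cebpb and Dbp RNA than at FAT-20. Of 14830 genes tested, 4373 were higher at FAT-55, which is 29.5% of all genes, and 866 were lower, which is 5.84%. Without the 10 libraries, 2052 genes were higher (13.8%) and 686 lower (4.63%), and by stem means, with 4 stems to a diet as the replicates, 195 were higher and 266 lower. The split also moved with the scaling: 83.5% of called genes were higher with the deposited size factors, 59.2% after TMM scaling, 40.6% with edgeR on the reads and 40.4% with DESeq2. The median log2 fold change over all tested genes was 0.10 with the deposited size factors and -0.00 with DESeq2, so small positive fold changes below are to be read against that shift. Fewer cells of a type and less RNA per cell cannot be told apart in such tissue samples.

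The widest separation between the diets was in a small set of transcripts that were lower at FAT-55. For 76 genes every FAT-55 library lay below every FAT-20 library, which is 0.512% of the genes tested, and for 16 genes every FAT-55 library lay above, which is 0.108%. The 76 had a median log2 fold change of -0.85, from -3.24 to -0.30. All 76 were also called lower without the 10 libraries, but leaving out libraries cannot undo such a separation, so this adds no support. They include Hnrnpab, which encodes an RNA-binding protein that packages nascent mRNA, Cebpb, a transcription factor of acute phase and adipocyte genes, Pcsk1n, whose product proSAAS inhibits the prohormone convertase PC1/3, and Cox11, a copper chaperone needed for cytochrome c oxidase. Basp1 and Marcks, which encode membrane-bound proteins of axon growth, and Smarca5, a chromatin remodelling ATPase, also belong to the 76 and were picked after their values were seen. The same 76 genes had a median log2 fold change of 0.00 between FAT-55 and FAT-20 on casein, from -0.46 to 0.37. None was called there by limma, while 7 were higher and 9 lower at an unadjusted p below 0.05, edgeR called 3 higher and 4 lower, and DESeq2 3 higher and 5 lower. Over all genes on casein limma called 1.27% higher and 1.06% lower, so the lack of a call among 76 says little. At an unadjusted p below 0.05 there were 5214 of the 14830 genes. Over all genes edgeR called 524 higher and 1962 lower, and DESeq2 704 and 2249.

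The sequences of 5 of these genes are shown because the set shares a sequence feature that was not used to choose it. Each line is the 100 coding bases with the highest GC content in the longest coding transcript, from GENCODE M21 on GRCm38, written 5′ to 3′ on the gene's strand, with runs of 6 or more G or C in capitals. Hnrnpab is at chr11:51606405-51606504, minus strand, within exon 2 of 8. Tmem158, a RAS-induced membrane protein gene, is at chr9:123260033-123260132, minus strand, in its single exon. Vstm2l, which encodes a secreted antagonist of the neuroprotective peptide humanin, is at chr2:157943997-157944096, plus strand, exon 4 of 4. Pdxp, the pyridoxal phosphate phosphatase, is at chr15:78914305-78914404, plus strand, exon 1 of 2, and Pcsk1n is at chrX:7922089-7922188, plus strand, exon 2 of 3. Serpina3n, a secreted protease inhibitor that rose at FAT-55, is given as a contrast, at chr12:104408986-104409085, plus strand, exon 2 of 5.
Hnrnpab: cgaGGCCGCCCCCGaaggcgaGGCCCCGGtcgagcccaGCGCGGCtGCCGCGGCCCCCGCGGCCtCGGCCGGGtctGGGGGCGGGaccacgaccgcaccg
Tmem158: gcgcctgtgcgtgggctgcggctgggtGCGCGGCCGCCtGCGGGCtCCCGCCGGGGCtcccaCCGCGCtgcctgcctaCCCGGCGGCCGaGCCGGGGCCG
Vstm2l: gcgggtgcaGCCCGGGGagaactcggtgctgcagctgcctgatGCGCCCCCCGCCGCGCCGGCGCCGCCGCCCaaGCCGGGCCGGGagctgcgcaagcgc
Pdxp: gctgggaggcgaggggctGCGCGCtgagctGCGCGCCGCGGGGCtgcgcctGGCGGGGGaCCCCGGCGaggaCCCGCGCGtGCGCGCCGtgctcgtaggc
Pcsk1n: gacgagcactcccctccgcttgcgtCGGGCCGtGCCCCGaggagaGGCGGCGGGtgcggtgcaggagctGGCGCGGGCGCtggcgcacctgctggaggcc
Serpina3n: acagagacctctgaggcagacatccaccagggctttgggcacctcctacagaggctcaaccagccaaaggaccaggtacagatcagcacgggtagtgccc
The GC content of these windows was 85% in Hnrnpab, 85% in Tmem158, 81% in Vstm2l, 83% in Pdxp and 78% in Pcsk1n, and 59% in Serpina3n, which has no run of 6.

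Hnrnpab had the smallest adjusted p of the genes described here. Its normalised counts ran from 1565 through a median of 1747 to 2430 in the 11 FAT-20 libraries and from 376 through 458 to 651 in the 12 FAT-55 libraries. The groups were far apart and no library lay between them. The log2 fold change was -1.97 ± 0.07 (SE; limma, adjusted p = 6.2e-35), and it was -1.89 without the 10 libraries. The 4 stem means were 1677 to 2014 on FAT-20 and 409 to 560 on FAT-55, so the difference was present in every set of mice. On casein the log2 fold change was -0.04 (limma, adjusted p = 0.65), and at WPI FAT-40, which is set against the same FAT-20 libraries, it was -0.06 (limma, adjusted p = 0.45). The difference between the WPI and the casein response was -1.92 (limma interaction, adjusted p = 5.5e-25).

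Tmem158 ran from 1268 through 1649 to 2248 on FAT-20 and from 201 through 317 to 666 on FAT-55, a log2 fold change of -2.23 ± 0.12 (SE; limma, adjusted p = 1.8e-23). Vstm2l ran from 2919 through 3300 to 5684 on FAT-20 and from 656 through 899 to 1331 on FAT-55, a log2 fold change of -1.88 ± 0.09 (SE; limma, adjusted p = 1e-27). Neither gene overlapped between the diets, and both had casein log2 fold changes within 0.04 of 0. Pcsk1n is the most abundant of the 4 plotted genes in read count, with 22993, 25495 and 29396 on FAT-20 as the lowest, median and highest value and 6798, 8984 and 21876 on FAT-55. Its log2 fold change was -1.23 ± 0.12 (SE; limma, adjusted p = 5.7e-13). Pcsk1n was more uneven among the FAT-55 mice than Hnrnpab, which was also highest in stem H3F. For Pcsk1n the 3 mice of stem H3F averaged 19525, against 8474 to 10249 for the other 3 stems. All 4 FAT-20 stems averaged between 24955 and 26928.

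**Figure D2:**
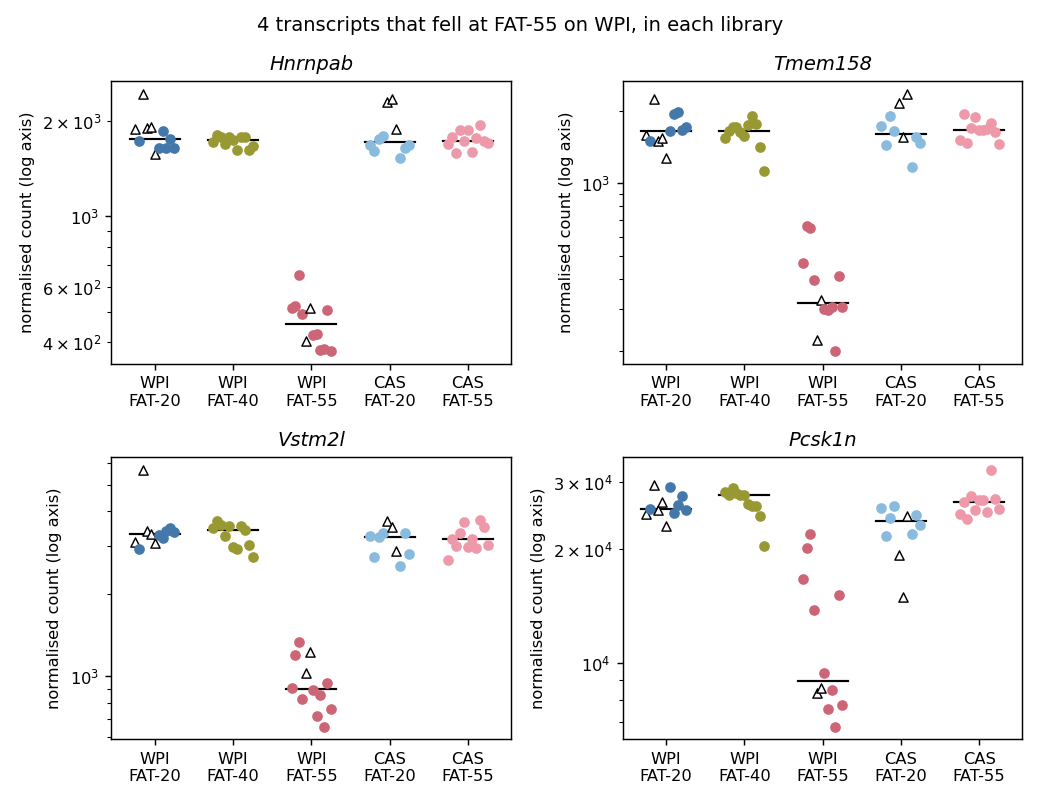
Normalised counts (y axis, log scale) of Hnrnpab, Tmem158, Vstm2l and Pcsk1n in each library, by diet (x axis). The FAT-55 libraries on WPI lie below all FAT-20 libraries on WPI for each of the 4 genes, for example 376 to 651 against 1565 to 2430 for Hnrnpab.

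Among the 10 genes with the most negative log2 fold change and a mean normalised count of at least 100, leaving out numbered predicted and Rik genes, Cox11 and Mrps34 act in mitochondria. Cox11 fell from a median of 296 (226 to 605) to 49.5 (22.7 to 204), a log2 fold change of -2.52 ± 0.22 (SE; limma, adjusted p = 1.1e-14). Mrps34, a protein of the small mitochondrial ribosomal subunit, fell by 1.95 on the log2 scale (limma, adjusted p = 2.4e-06), and its groups overlapped, with 263 to 958 on FAT-20 and 27.6 to 391 on FAT-55. Scand1, a SCAN domain gene, had the most negative fold change, -3.24 ± 0.30 (SE; limma, adjusted p = 2.8e-13), from 199 to 832 on FAT-20 to 4.92 to 190 on FAT-55. The others of the 10 were Zfp771, a zinc finger gene (-1.93), Rab5if (-2.01), Tmem238 (-1.93) and Nrtn (-2.11), which encodes the neurotrophic factor neurturin. Nrtn overlapped between the diets, with 77.7 to 335 against 7.03 to 113. Each of these 10 genes was called without the 10 libraries too.

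Several of the lower transcripts encode transcription factors. Cebpb ran from 40 through 67.4 to 159 on FAT-20 and from 5.54 through 11 to 19.1 on FAT-55, so the groups did not overlap, and its log2 fold change was -2.62 ± 0.17 (SE; limma, adjusted p = 4.9e-20). Its relative Cebpd ran from 82.3 through 150 to 477 and from 32.2 through 60 to 114, with overlap, and fell by 1.16 on the log2 scale (limma, adjusted p = 2.6e-05). Nkx2-4, a homeobox gene of the developing and adult hypothalamus, ran from 77.9 through 93.6 to 237 and from 6.94 through 26.9 to 69.9. It fell by 1.90 (limma, adjusted p = 5e-10). Insm1, a zinc finger factor of neuroendocrine cells, fell by 1.18 (limma, adjusted p = 2.8e-11), and Dmrta2, a DM domain factor of forebrain patterning, fell by 1.65 (limma, adjusted p = 2.8e-12). Foxd1, a forkhead factor, fell by 0.91 (limma, adjusted p = 0.00055). Insm1, Dmrta2, Foxd1, Pdxp, Sap30l and Mocs3 were picked for description after their values were seen. Sap30l, a subunit gene of the SIN3 co-repressor complex, fell by 1.44 and Mocs3, of molybdenum cofactor synthesis, by 1.39.

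The set that fell was short and rich in GC. The 76 genes had a median transcript length of 2122 bases against 3442 over all genes tested, and a median GC content of 56.6% against 50%. The GC-richest 100 bases of the transcript had a median of 85% GC in the set and 73% over all genes, and 73 of the 76 (96.1%) held a window of at least 80% GC, against 23.8% of all genes tested. Pcsk1n and Atg3 were among the 3 that did not. Of the genes whose richest window was at least 85% GC, 3.19% lay wholly below FAT-20, and of those at 80 to 85% the share was 1.40%, while no lower band exceeded 0.0581%. The same held for calls without the 10 libraries: 20.1% of genes in the highest band and 14.0% in the next were called lower, against 0.257 to 2.33% in the bands under 80%. None of the 16 genes wholly above FAT-20 had a window of at least 80%. Whether the window itself has a part in the lower counts was not tested.

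The broad shift towards higher counts followed transcript length. Transcripts under 1000 bases had a median log2 fold change of -0.35 and those of 6000 bases or more 0.37 with all libraries. Without the 10 libraries those medians were 0.03 and 0.12, so most of the trend went with the libraries that stood apart. The length slope itself differed between the diets by 0.23 (permutation p = 0.088, adjusted p = 0.32 over 18 scores, 100000 resamples, two-sided), and by 0.03 without the 10 libraries (permutation p = 0.48).

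**Figure D3:**
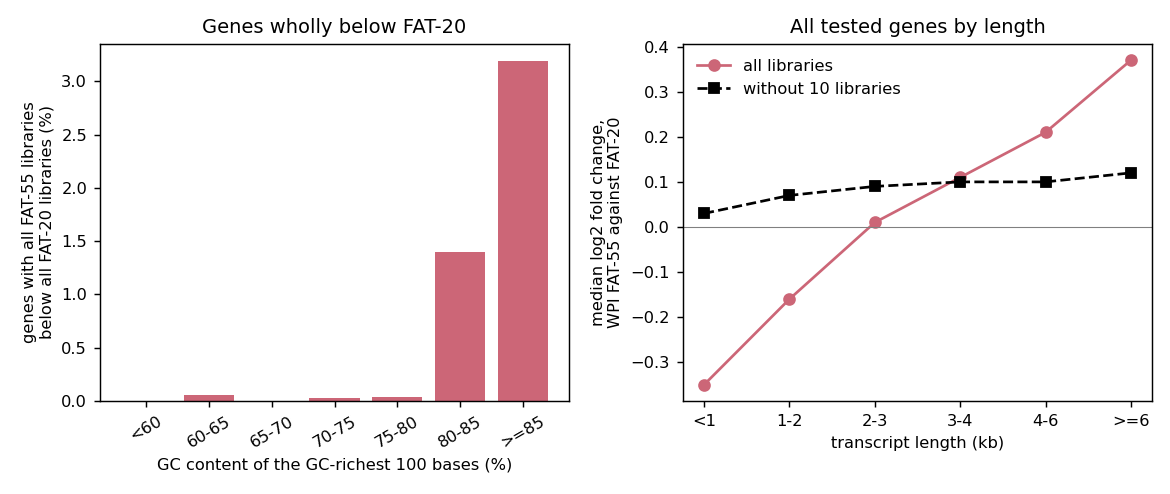
Left, the percentage of tested genes with all FAT-55 libraries below all FAT-20 libraries (y axis) by the GC content of the GC-richest 100 bases of the transcript (x axis), which is 1.40% and 3.19% in the highest 2 bands. Right, the median log2 fold change of FAT-55 against FAT-20 on WPI (y axis) by transcript length (x axis, kb) with all libraries and without the 10, where the median of transcripts of 6 kb or more goes from 0.37 to 0.12.

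By the same rule the 10 genes with the largest positive log2 fold change were Auts2, Dgkk, Fosb, Hspg2, Igsf9b, Kmt2d, Npas4, Shank1, Srrm4 and Tnxb. Fosb and Npas4 apart, they have transcripts of 7155 bases or more, which include Kmt2d (19823 bases), a histone H3 lysine methyltransferase gene, Hspg2 (14187 bases), the basement membrane proteoglycan perlecan, and Shank1 (9826 bases), a scaffold of the postsynaptic density. Shank1 ran from 533 through 4009 to 6766 on FAT-20 and from 1895 through 7300 to 8577 on FAT-55. The low FAT-20 values belong to the libraries that stood apart, the groups overlapped, and the log2 fold change went from 0.95 (limma, adjusted p = 0.0029) to 0.41 (limma, adjusted p = 0.005) without them. Kmt2d went from 0.95 (limma, adjusted p = 0.0075) to 0.29 (limma, adjusted p = 0.13) and Hspg2 from 0.88 (limma, adjusted p = 0.025) to 0.13 (limma, adjusted p = 0.67). Auts2, a regulator of neuronal migration, kept its call, at 0.86 and then 0.28 (limma, adjusted p = 0.043), and so did Igsf9b, an adhesion protein of inhibitory synapses, at 0.84 and then 0.35 (limma, adjusted p = 0.028).

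Several genes of the leptin pathway were called higher at FAT-55, with the signal transducer Stat3 and its feedback inhibitor Socs3 among them. Of 12 listed genes limma called 6 higher, with a median log2 fold change of 0.24, beside 29.5% and 0.10 for all genes. edgeR and DESeq2 each called 4 higher. None was lower by these 3 tools or at an unadjusted p below 0.05. By stem means 1 was higher. After each library's trend on GC content and length was removed 2 were higher and 1 lower. Without the 10 libraries 3 were higher, Stat3, Socs3 and Sh2b1, with a list median of 0.11, beside 13.8% and 0.10 for all genes. The median transcript length of the list was 4661 bases, against 3442 over all genes. Stat3 ran from 519 through 1117 to 1359 on FAT-20 and from 925 through 1383 to 1648 on FAT-55. The ranges overlapped, and the lowest FAT-20 values, 519, 598 and 639, came from libraries that stood apart. The log2 fold change was 0.51 ± 0.11 (SE; limma, adjusted p = 3e-04) with all libraries and 0.22 ± 0.06 (SE; limma, adjusted p = 0.012) without the 10. On stem means the adjusted p was 0.062 (limma). On casein Stat3 had a log2 fold change of 0.34 (limma, adjusted p = 0.058), and the difference between the proteins was 0.17 (limma interaction, adjusted p = 0.68).

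Socs3 was low in read count in every library. It ran from 14.3 through 45.7 to 59.3 on FAT-20 and from 39.7 through 60.7 to 96.0 on FAT-55. The ranges overlapped between 39.7 and 59.3, and the stem means did not, with 35.2 to 51.4 on FAT-20 and 57 to 72.5 on FAT-55. The log2 fold change was 0.66 ± 0.16 (SE; limma, adjusted p = 0.0015) and 0.46 ± 0.16 (SE; limma, adjusted p = 0.041) without the 10 libraries, and it stayed called, at 0.59, after each library's trend on GC content and length was removed. On casein it was 0.49 (limma, adjusted p = 0.061) and at WPI FAT-40, against the same FAT-20 libraries, 0.79 (limma, adjusted p = 0.00059). Sh2b1, an adaptor that enhances JAK2 signalling, rose by a log2 fold change of 0.28 (limma, adjusted p = 0.00011; 0.21 without the 10). Ptpn1, the phosphatase that dephosphorylates JAK2, had 0.33 (limma, adjusted p = 0.00049), which was 0.12 without the 10 (limma, adjusted p = 0.2). The leptin receptor Lepr had 22.3 to 81.1 on FAT-20 and 48.6 to 93.0 on FAT-55 and was not called (log2 fold change 0.31; limma, adjusted p = 0.14).

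The Socs3 promoter is shown because Stat3 and Socs3 were higher together and STAT proteins bind the motif TTCNNNGAA, which reads the same on both strands. The 250 bases before the annotated start, from RefSeq on GRCm38.p6, are chr11:117969367-117969616 on the minus strand, with the single match in capitals, 154 bases upstream of the start.
Socs3 promoter: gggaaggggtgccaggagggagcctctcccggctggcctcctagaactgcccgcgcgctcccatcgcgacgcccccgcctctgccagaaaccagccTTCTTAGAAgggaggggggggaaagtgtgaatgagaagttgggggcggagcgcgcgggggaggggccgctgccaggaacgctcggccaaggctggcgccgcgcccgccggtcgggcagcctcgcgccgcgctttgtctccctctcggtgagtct
The same window of Stat3 held no match, nor did that of Serpina3n. Over all 32851 promoters of this length 2306 (7.02%) held 1 or more matches, and a match is a description of the letters only.

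**Figure D4:**
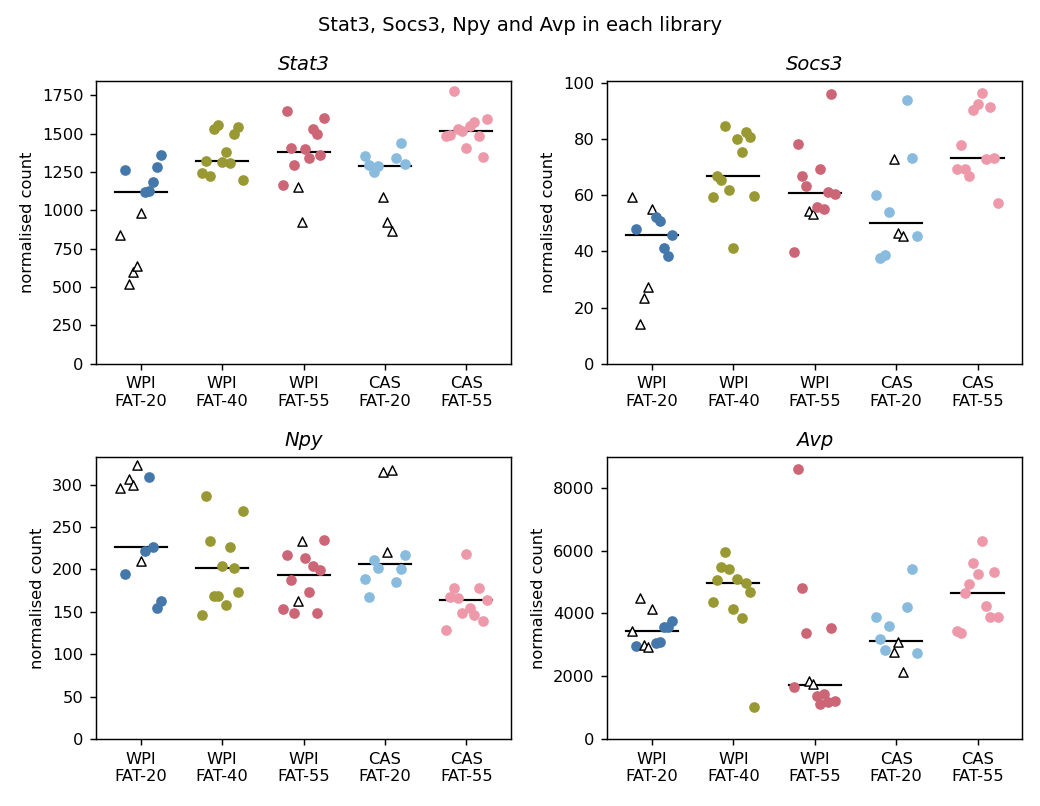
Normalised counts (y axis, linear) of Stat3, Socs3, Npy and Avp in each library, by diet (x axis). The WPI FAT-55 libraries are higher for Stat3 and Socs3 with overlap, lower for Npy with overlap, and mostly low for Avp with single libraries up to 8600.

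Of the appetite-raising and appetite-lowering peptides of the arcuate nucleus, Npy alone was called. Npy ran from 155 through 226 to 323 on FAT-20 and from 149 through 194 to 235 on FAT-55. The low ends coincided, and the difference lay in the higher FAT-20 libraries. It fell by 0.35 on the log2 scale, with an SE of 0.12 (limma, adjusted p = 0.023), was -0.15 without the 10 libraries (limma, adjusted p = 0.48), and was 0.04 once the trend on length and GC content was removed. The Npy transcript is 566 bases long, and the 3 FAT-20 stems with the higher means, 265 to 278, include both stems that hold libraries apart, while the mean of stem L4A was 182. On casein Npy had -0.43 (limma, adjusted p = 0.052). Agrp, the melanocortin receptor antagonist of the same neurons, had -0.41 ± 0.25 (SE; limma, adjusted p = 0.18). Pomc, the precursor of the satiety peptide alpha-MSH, had -0.35 ± 0.33 (SE; limma, adjusted p = 0.41) and spanned 296 to 2268 and 31.7 to 1290, and Cartpt had -0.21 (limma, adjusted p = 0.31). Of the 4 appetite-raising genes tested 1 was called lower, and of the 5 appetite-lowering genes none was called by limma or edgeR, while 1 was lower by DESeq2 and at an unadjusted p below 0.05.

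Of 18 receptors for feeding signals 4 were higher, a smaller share than the 29.5% of all genes, with a median log2 fold change of 0.14. Glp1r, the receptor of the incretin GLP-1, ran from 67 through 141 to 203 on FAT-20 and from 108 through 213 to 331 on FAT-55. Its ranges overlapped, and its log2 fold change was 0.66 ± 0.17 (SE; limma, adjusted p = 0.0023), or 0.33 (limma, adjusted p = 0.12) without the 10 libraries. Npy2r, a presynaptic receptor of NPY and PYY, had 0.32 (limma, adjusted p = 0.016), Calcr, the calcitonin receptor, 0.39 (limma, adjusted p = 0.047), and Ntrk2, the receptor of BDNF, 0.25 (limma, adjusted p = 0.00092). Only Ntrk2 among these 4 was called without the 10 libraries, at 0.15, and it turned to -0.18 once the trend on length and GC content was removed. Insulin pathway genes went the same way as long transcripts in general: 8 of 15 were higher and 1 lower, with a median of 0.27. For all genes those values were 29.5% higher and a median of 0.10. Without the 10 libraries limma called 4 higher and 1 lower, with a median of 0.07. With all libraries edgeR called 1 insulin pathway gene higher and 1 lower, and DESeq2 3 and 2. By stem means none was called. After the trend on GC content and length was removed 1 was higher and 2 lower, with a median of -0.06. Tsc2 and Mtor, a brake and the kinase of the mTOR pathway, had 0.53 and 0.58 with all libraries and 0.19 each without the 10. Igf1r had 0.58 and 0.23.

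Among neurosecretory peptides Avp, Crh and Vip were lower at FAT-55 and none of the 12 was higher. For all genes the shares were 5.84% lower and 29.5% higher. The list median log2 fold change was -0.31, and it became -0.08 without the 10 libraries. In that fit none was called by limma and 1 was lower at an unadjusted p below 0.05. By stem means none of the 12 was called, nor after each library's trend on GC content and length was removed. With all libraries edgeR called 3 lower and DESeq2 4. Avp ran from 2931 through 3438 to 4498 on FAT-20 and from 1139 through 1716 to 8600 on FAT-55. Of the 12 FAT-55 libraries 8 lay below every FAT-20 library, while replicates 2, 3 and 11 had 8600, 4824 and 3539. The log2 fold change was -0.68 ± 0.22 (SE; limma, adjusted p = 0.014), or -0.59 ± 0.28 (SE; limma, adjusted p = 0.14) without the 10. By stem, the FAT-20 means were 3091 to 3635 and the FAT-55 means 1330, 1978, 2335 and, for H3F, 5032. H3F was also the highest FAT-55 stem for Pcsk1n, Hnrnpab, Tmem158, Scand1 and Cox11, among other lower genes, but not for Rab5if, Tmem238 or Sap30l. On casein Avp had a log2 fold change of 0.47 (limma, adjusted p = 0.14), and the WPI response differed from it by -1.15 (limma interaction, adjusted p = 0.029), which was -0.92 (limma interaction, adjusted p = 0.12) without the 10.

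Crh, the releasing hormone of the stress axis, ran from 113 through 140 to 210 and from 79.4 through 102 to 166, with a log2 fold change of -0.44 ± 0.16 (SE; limma, adjusted p = 0.023), and -0.31 without the 10 (limma, adjusted p = 0.25). Oxt, the oxytocin gene that lies beside Avp in the genome, ran from 2592 through 3464 to 7542 and from 1417 through 2678 to 4354 and was not called (log2 fold change -0.50; limma, adjusted p = 0.12). Trh had -0.35 (limma, adjusted p = 0.22). Of 13 other peptides of the lateral hypothalamus and elsewhere Tac1 (-0.53) and Cck (-0.72) were lower, beside 5.84% of all genes. Neither was called without the 10 libraries. By stem means none of the 13 was called, and after the trend on GC content and length was removed 1 was higher and 1 lower.

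The GC-richest coding windows of Avp (chr2:130581078-130581177, minus strand, exon 2 of 3) and Oxt (chr2:130576671-130576770, plus strand, exon 2 of 3) are shown, with capitals as above, because the 2 genes are close copies there and reads from such a stretch can be split between them.
Avp: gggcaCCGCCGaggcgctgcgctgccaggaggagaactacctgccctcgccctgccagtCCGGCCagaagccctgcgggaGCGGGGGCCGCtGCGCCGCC
Oxt: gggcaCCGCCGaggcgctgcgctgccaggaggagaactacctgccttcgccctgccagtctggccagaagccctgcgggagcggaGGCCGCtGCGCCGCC
How the submitters' counting treated reads that match both genes is not given in the sources used here.

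Immediate early genes, which neurons transcribe within minutes of firing, were often called higher at FAT-55 with all libraries, and seldom without the 10. Of 17 tested 9 were higher and none was lower by limma, with a median log2 fold change of 0.49, beside 29.5% higher and 0.10 for all genes. By stem means 2 were higher. edgeR and DESeq2 each called 5 higher and none lower, and no gene was lower at an unadjusted p below 0.05. Fos ran from 291 through 404 to 839 on FAT-20 and from 524 through 668 to 836 on FAT-55. Most FAT-20 libraries lay under the lowest FAT-55 library, and the highest values of the diets were alike. The log2 fold change was 0.66 ± 0.14 (SE; limma, adjusted p = 0.00032). Npas4, an activity-dependent transcription factor, ran from 37.3 through 121 to 190 and from 107 through 190 to 282, with 0.92 ± 0.21 (SE; limma, adjusted p = 0.00071). Arc, a synaptic capsid-like protein, had 0.68 (limma, adjusted p = 0.00081), Fosb 0.87 (limma, adjusted p = 0.00049) and Jun 0.37 (limma, adjusted p = 0.0014). Without the 10 libraries limma called 1 higher and 1 lower, beside 13.8% and 4.63% of all genes, and the median was 0.20. At an unadjusted p below 0.05 those counts were 5 and 1. Npas4 stayed called at 0.51 (limma, adjusted p = 0.014), and Egr4 was lower at -0.74 (limma, adjusted p = 0.023). Fos had 0.37 (limma, adjusted p = 0.07) and Arc 0.40 (limma, adjusted p = 0.053). After the trend on GC content and length was removed 7 were higher, beside 1343 of all 14824 genes in that fit. On casein 3 of the 17 were higher at FAT-55, beside 1.27% of all genes, with a list median of 0.41. Fos there had a log2 fold change of 0.64 (limma, adjusted p = 0.019), and its response differed between the proteins by 0.01 (limma interaction, adjusted p = 0.98). The full palindrome TGACGTCA of the cAMP response element was searched in the 250 bases before the starts of Fos, Fosb and Npas4 and was absent. Of all promoters 1.55% held it. Shorter or variant forms of the element were not searched, so this does not say that the 3 promoters lack it.

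Clock genes moved in both directions. Dbp, a transcription factor that oscillates daily and is driven by CLOCK and BMAL1, ran from 1003 through 1380 to 1514 on FAT-20 and from 377 through 792 to 1253 on FAT-55. The ranges overlapped between 1003 and 1253. By stem, the means were 1026 (L2D) and 1427 to 1450 on FAT-20 and 1100 (H3F) and 542 to 853 on FAT-55. It fell by 0.78 on the log2 scale with an SE of 0.13 (limma, adjusted p = 4.8e-06) and by 0.94 without the 10 libraries. Dbp stayed called under all 47 alternatives. The GC-richest window of its transcript was 84% GC, a trait of the set that fell. Of genes at 80 to 85%, 15.7% were called lower with all libraries, against 0.931 to 5.29% in the bands under 80%. Whether that window has a part in the lower Dbp counts was not tested. Cry1, a repressor of the clock, fell by 0.32 (limma, adjusted p = 0.0012; -0.27 without the 10). Nr1d1, which encodes the repressor REV-ERB alpha, rose by a log2 fold change of 0.49 (limma, adjusted p = 0.00073; 0.21 without the 10), and Bhlhe40 by 0.30 (limma, adjusted p = 0.00069; 0.21 without the 10). Of 19 clock genes 10 were higher and 2 lower with all libraries, and 6 were higher and 3 lower without the 10, the third lower gene being Bhlhe41 at -0.43, beside 29.5% and 5.84% of all genes with all libraries. With TMM scaling 4 were higher and 4 lower, with the trend on GC content and length removed 2 and 4, and by stem means Dbp alone was called. On casein none was called by limma, edgeR or DESeq2, 3 were higher and 1 lower at an unadjusted p below 0.05, and Dbp had -0.30 (limma, adjusted p = 0.11), and the Dbp responses differed by -0.48 (limma interaction, adjusted p = 0.15). The time of day at which each group was sampled is not in the labels, so it cannot be told apart from diet here. Of 13 glucocorticoid-induced genes Per1 was higher (0.46) and Sult1a1 lower (-0.74), and neither was called without the 10.

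Genes of inflammation showed no common direction, and their share called higher with all libraries was near the 29.5% of all genes. Of 13 tested 4 were higher and 2 lower, and 3 and 2 without the 10: Socs3, Ikbkb (0.35), Nfkb1 (0.26) and Rela (0.22) rose, of which the last 3 encode parts of NF-kB signalling, and Cebpb and Cebpd fell. Serpina3n, an acute phase protease inhibitor of astrocytes, which belongs to no list and was picked after its values were seen, ran from 421 through 553 to 765 on FAT-20 and from 385 through 852 to 1002 on FAT-55. The FAT-55 range reached lower and higher, with most libraries above the FAT-20 maximum. The log2 fold change was 0.54 ± 0.12 (SE; limma, adjusted p = 0.00058), it was 0.51 (limma, adjusted p = 0.0081) without the 10 libraries, and it stayed called under all 47 alternatives. On casein Serpina3n had 0.55 (limma, adjusted p = 0.019), with a difference between proteins of -0.01 (limma interaction, adjusted p = 0.98). Of 19 interferon response genes 1 was called by limma, higher, with a list median of 0.03, and DESeq2 called 1 lower. limma called 3 higher without the 10 libraries, among them Irf9 (0.27) and Isg15 (0.75), with a median of 0.17.

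Synaptic genes were often called higher by limma with all libraries and the deposited size factors. Of 17 glutamate genes 13 were higher, with a median log2 fold change of 0.43, of 14 GABA genes 6, with 0.17, and of 18 presynaptic genes 11, with 0.31, beside 29.5% and 0.10 for all genes. By stem means none of the 3 lists held a call by limma. None of these 3 lists had a lower member by limma. edgeR and DESeq2 each called 2 GABA genes higher and 3 lower, and 1 presynaptic gene higher and 1 lower. Of the glutamate genes edgeR called 6 higher and DESeq2 7, with none lower. With TMM scaling 7 glutamate, 2 GABA and 3 presynaptic genes were higher, and 3 GABA genes and 1 presynaptic gene lower. At an unadjusted p below 0.05 2 GABA genes were lower. Without the 10 libraries the counts were 5, 2 and 4, with medians of 0.24, 0.05 and 0.12, and the calcium channel gene Cacna1a was lower at -0.20. Gria1, an AMPA receptor subunit, ran from 4173 through 5895 to 6808 and from 6010 through 7127 to 8176, with 0.34 ± 0.07 (SE; limma, adjusted p = 0.00045), and 0.17 without the 10 (limma, adjusted p = 0.046). Dlg4, the postsynaptic scaffold PSD-95, had 0.43 (limma, adjusted p = 0.00048) and 0.21 (limma, adjusted p = 0.00029). Rims1, an active zone protein, had 0.63 (limma, adjusted p = 0.0019) and 0.31 (limma, adjusted p = 0.0066), and Gabbr2, a GABA-B receptor subunit, 0.60 (limma, adjusted p = 0.0023) and 0.23 (limma, adjusted p = 0.014). The median transcript length of the glutamate list was 6326 bases, against 3442 over all genes.

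Of 20 fatty acid genes 11 were higher and 1, Mlycd, was lower, with a median of 0.26, beside 29.5% higher and 0.10 for all genes. Without the 10 libraries 6 were higher and 1 lower, with 0.14, and by stem means 1 was lower and none higher. Mlycd encodes malonyl-CoA decarboxylase, which removes the inhibitor of mitochondrial fatty acid uptake. It ran from 551 through 592 to 997 on FAT-20 and from 413 through 469 to 699 on FAT-55. The ranges overlapped at 551 to 699. Mlycd fell by 0.43 with an SE of 0.08 (limma, adjusted p = 4e-05; -0.31 without the 10). The GC-richest window of its transcript was 84% GC, and whether that has a part in its lower counts was not tested. Cpt1c, the brain carnitine palmitoyltransferase that binds malonyl-CoA, ran from 580 through 838 to 1097 and from 778 through 1119 to 1327, and rose by a log2 fold change of 0.36 (limma, adjusted p = 0.00021; 0.23 without the 10). Acsl6, a long-chain acyl-CoA synthetase of neurons, rose by 0.20 (limma, adjusted p = 8.7e-05). Of 20 cholesterol genes 4 were higher and 1 lower, with a median of 0.03, and 3 were higher and none lower without the 10, with 0.13. Srebf2, the transcription factor of cholesterol synthesis, rose by 0.39 (limma, adjusted p = 4.3e-06; 0.25 without the 10) and Dhcr7, the last enzyme of the pathway, by 0.40 (limma, adjusted p = 9.8e-05; 0.21 without the 10). Insig1, which retains SREBP in the endoplasmic reticulum, fell by 0.37 (limma, adjusted p = 0.003; -0.20 without the 10, adjusted p = 0.061).

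The lists of short transcripts were low without many calls. Of 34 cytosolic ribosomal protein genes Rps2 alone was called lower, with a list median of -0.57 that was -0.03 without the 10 libraries, and their counts are uncertain because of near-identical copies. Of 35 nuclear genes of the respiratory chain Cox5a and Atp5k were lower, with a median of -0.45 that was 0.05 without the 10. Cox5a, a subunit of cytochrome c oxidase, had -1.30 (limma, adjusted p = 2.7e-05) and -0.85 (limma, adjusted p = 0.0024), and Atp5k -0.78 (limma, adjusted p = 0.044) and -0.13 (limma, adjusted p = 0.57). At WPI FAT-40, against the same FAT-20 libraries, 30 of the 35 and all 34 ribosomal genes were lower, whereas without the 10 libraries 3 genes in all were lower in that comparison and by stem means none was. None of 11 mitochondrially encoded mRNAs was called by limma, edgeR or DESeq2 or at an unadjusted p below 0.05 with all libraries, and 9 were called higher once the trend on GC content and length was removed. Of 16 amino acid sensing and transport genes 5 were higher, a share near the 29.5% of all genes, with 2 higher without the 10 and none by stem means. Slc3a2, the heavy chain of leucine transporters, had 0.22 (limma, adjusted p = 0.00066). Of 20 genes of endoplasmic reticulum stress Hyou1 was higher and Xbp1 lower, with a median of -0.04, while without the 10 libraries 5 were higher (Hspa5, Calr, Canx, Pdia6 and Hyou1) and none lower by limma, with 0.15. At an unadjusted p below 0.05 those counts without the 10 were 9 and 1. Of 12 heat shock genes Hsph1 (0.27) and Bag3 (0.44) were higher and Hspb1 (-0.49) lower, and Hsph1 alone was called without the 10. Of 10 thyroid hormone genes 3 were higher, a share near the 29.5% of all genes, among them Hr at 0.45 and Thrb at 0.19. None was called without the 10 by limma. Of 12 histone genes H2afj was lower at -0.75, with a median of -0.21, while without the 10 libraries 3 were higher, H1f0, Hist1h4i and Hist2h2be, and none lower by limma, with 0.16.

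**Figure D5:**
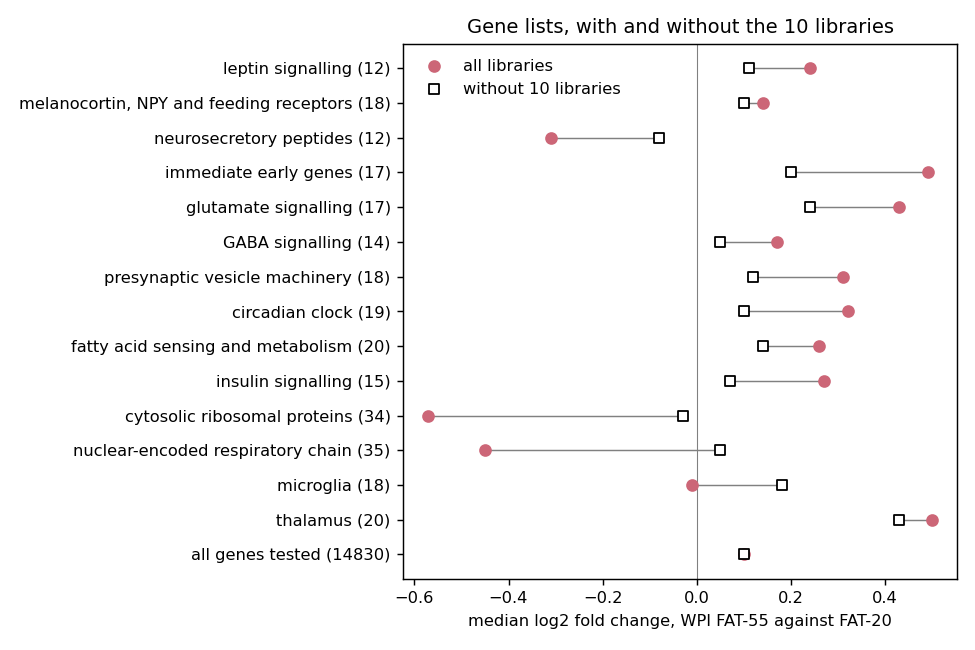
Median log2 fold change of FAT-55 against FAT-20 on WPI (x axis) of each gene list (y axis, number of genes tested in brackets) with all libraries and without the 10. Most medians move towards 0 without them, for example from -0.57 to -0.03 for ribosomal proteins and from 0.49 to 0.20 for immediate early genes, and the thalamus list stays at 0.50 and 0.43.

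Markers of cell types and neighbouring regions were measured in the same libraries. Their counts are to be read beside 29.5% of all genes higher and 5.84% lower with all libraries. Without the 10 those shares were 13.8% and 4.63%. Of 18 microglial markers limma called 3 higher and 0 lower. These were Csf1r (0.34; limma, adjusted p = 1e-05), Selplg (0.36; limma, adjusted p = 1.9e-05) and Cx3cr1 (0.28; limma, adjusted p = 0.00068). The 18 had a median of -0.01, or 0.18 with 5 higher without the 10. With all libraries edgeR called 3 higher and 1 lower, and DESeq2 3 and 2. The mean log2 level of the list differed by -0.04 (permutation p = 0.78), and by 0.17 without the 10 (permutation p = 0.0057, adjusted p = 0.052). Astrocyte markers went both ways, with Aldh1l1 (0.37) and Slc1a2 (0.52) among 5 that rose and Ntsr2 (-0.31) and Gjb6 (-0.36) the 2 that fell, of 16. Of 12 neuronal markers limma called 6 higher, with Syp at 0.16 and Map2 at 0.43, while none was called with TMM scaling, edgeR or DESeq2. Of 8 oligodendrocyte precursor markers 3 rose, Gpr17, Tnr and Cspg4. Of 16 oligodendrocyte markers Mag and Myrf rose by limma, with a list median of -0.05. There edgeR and TMM scaling each gave 0 higher and 2 lower, and DESeq2 0 and 5. Of 16 tanycyte and ependymal markers 4 rose and Rax fell by limma. Of 16 endothelial and pericyte markers limma called 6 higher and 1 lower, TMM scaling gave 3 and 2, edgeR 0 and 2, and DESeq2 0 and 3. No tanycyte or endothelial marker was called by limma without the 10 libraries (at an unadjusted p below 0.05, 2 tanycyte markers were higher and 1 lower, and 3 endothelial markers higher and 1 lower), 4 neuronal and 1 precursor marker were higher, and by stem means none of these 4 lists held a call. Meningeal (1 of 12), choroid plexus (1 of 10), pituitary (0 of 7), striatal (1 of 16, lower), midbrain and hindbrain (0 of 10) and blood (0 of 8) lists held few or no calls by limma. Of the blood genes edgeR and DESeq2 each called 2 lower, as did an unadjusted p below 0.05, and neither tool called a pituitary or midbrain gene. Hypothalamic transcription factors held 2 higher and 2 lower genes of 18, with a median of -0.03. The fit without the 10 libraries called 4 lower, Nkx2-1 (-0.56), Nkx2-4 (-1.81), Six3 (-0.36) and Hmx3 (-0.56), and none higher by limma, with a median of -0.01.

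The thalamus list had the highest median of the regional lists. Of 20 genes 9 were higher, with a median log2 fold change of 0.50, beside 29.5% and 0.10 for all genes. Without the 10 libraries 3 were higher, with 0.43, beside 13.8% and 0.10. Rgs16, a brake on G protein signalling that is strong in thalamus, ran from 379 through 535 to 695 on FAT-20 and from 508 through 868 to 1183 on FAT-55. Its ranges overlapped, and its log2 fold change was 0.65 (limma, adjusted p = 0.0016), or 0.69 (limma, adjusted p = 0.0079) without the 10. The mean log2 level of the list was 9.73 ± 0.36 (SD, n = 11) and 10.16 ± 0.40 (SD, n = 12), a difference of 0.43 (permutation p = 0.012, adjusted p = 0.053 over 18 scores), and by stem means an exact permutation test of 4 against 4 gave p = 0.057. FAT-55 replicate 1 held both the highest thalamus level, 10.73, and the lowest level of hypothalamic transcription factors, 6.13. The hypothalamic level was 7.15 ± 0.23 (SD, n = 11) and 7.06 ± 0.34 (SD, n = 12), with a permutation p of 0.47. Of the other scores, neurons (0.15, adjusted permutation p = 0.0022), oligodendrocyte precursors (0.25, adjusted permutation p = 0.0054) and endothelial cells (0.17, adjusted permutation p = 0.047) were higher at FAT-55. Neurons and oligodendrocyte precursors reached the smallest p, 0.029, that an exact permutation test of 4 against 4 stems can give. These scores use the deposited size factors, with which the median log2 fold change over all genes was 0.10. The median log2 fold changes of these 3 lists were 0.12, 0.15 and 0.22 with those factors. With TMM scaling they were 0.04, 0.07 and 0.14, and 0.03 over all genes. The share of thalamus in each dissection was not tested as a part of these results. Of 16 cortical and hippocampal genes 3 were higher and 2 lower, among the latter Camk2n1 at -0.63 (limma, adjusted p = 0.0028) and at -0.31 (limma, adjusted p = 0.012) without the 10.

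Transcripts of intestinal epithelium were present at low counts, and their summed reads were mostly higher at FAT-55. The list of 23 such genes was drawn up after Sis and Mgam, the brush border disaccharidases, were seen among the 16 genes wholly above FAT-20. Summed reads over the 23 genes were 46 to 346 in the FAT-20 libraries, with a median of 83, and 221 to 324 in the FAT-55 libraries, with a median of 249. The ranges overlapped through FAT-20 replicate 8 alone, at 346, the next FAT-20 library being at 104. Sis had 0 to 2.92 normalised counts on FAT-20 and 13.9 to 25.7 on FAT-55. On casein the sums were 59 to 326 at FAT-20, 296 to 447 at FAT-40 and 200 to 291 at FAT-55, so the low values went with FAT-20 on both proteins. At WPI FAT-40 1 library reached 3894. The libraries held 14.4 to 16.1 M reads each, the series also holds jejunum samples, and the source of these reads was not tested.

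Set beside casein, the FAT-55 response on WPI differed for 519 genes, 272 higher on WPI (1.83% of genes tested) and 247 lower (1.67%). That split moved with the scaling and tool, to 21 higher and 354 lower with TMM, 21 and 349 with edgeR, 37 and 385 with DESeq2, and 0 and 87 by stem means. Of the 76 genes wholly below FAT-20, 72 were among those that differed. The 76 were chosen by the WPI contrast, which is part of this difference, so that count is no separate support. On casein itself 189 genes were higher (1.27%) and 157 lower (1.06%) at FAT-55, against 524 and 1962 with edgeR, 704 and 2249 with DESeq2, and 6 and 1 by stem means. At WPI FAT-40, against the same FAT-20 libraries, 5630 were higher (38.0%) and 2161 lower (14.6%), or 684 and 3 without the 10 libraries, and 13 of the 76 were called, with a median of -0.02 and a range of -0.58 to 0.56. The 4 genes Stat3, Socs3, Npy and Serpina3n were not called for a difference between the proteins, with interaction values of 0.17, 0.17, 0.08 and -0.01 (limma, adjusted p = 0.68, 0.79, 0.86 and 0.98), while Hnrnpab, Vstm2l, Tmem158, Cebpb and Avp were. Dbp and Rgs16 had interaction values of -0.48 and 0.60 and were not called (limma, adjusted p = 0.15 for each).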

How the data were processed

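Total RNA of mouse hypothalamus was extracted with Tri-reagent and a column kit and sequenced by standard Illumina library preparation, per the labels' protocols. Trim Galore 0.61, cutadapt, FastQC, STAR, DESeq2 1.24.0 and build GRCm38 are named per the submitters' processing notes, with no order or role. The STAR version, annotation release and strand setting are not given in the sources used here, so reads of overlapping or antisense genes cannot be told apart. The deposited values are a signal: the reads of each of 21883 genes over a size factor of the library. All positive values (100%) came within 0.05 of a whole number of reads when multiplied by recovered factors of 0.712 to 1.08. No 2 libraries held identical values. Depth was 14.4 to 16.1 M reads per library.

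Groups came from the diet labels. limma 3.58.1 with a trend in R 4.3.3 was run on log2(value + 1), 1 coefficient per diet over 67 libraries, with Benjamini-Hochberg adjustment over the 14830 genes that reach a value of 10 in 10 or more libraries. The fold changes are on the log2(value + 1) scale, which understates the change of genes with low values. edgeR 4.0.16 and DESeq2 1.42.0 were run on the recovered reads as alternatives. The code was tested on simulated data. Scores per library were compared by two-sided permutation (100000 resamples, scipy 1.17.1) and by exact permutation over stems. Described genes are Npy, Avp, Stat3 and Socs3, the 10 called genes with the largest change in each direction at a mean of at least 100 (numbered predicted and Rik genes left out), and up to 3 with the smallest adjusted p of each list. Some others are said to have been picked after their values were seen. The genes and lists were chosen with earlier results of these data known, so their counts are a description. List medians and counts carry no test. p-values measure the spread between these mice only, and stems are treated as replicates in an alternative. Alternatives changed the pseudocount, filter, scaling, tool, libraries, stems and the trend on GC content and length. Transcript lengths and coding windows are from GENCODE M21 (21806 of the 21883 genes matched), and promoters from RefSeq (GRCm38.p6). Results for a few genes are not reported here.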

Additional observations from a re-analysis of the deposited data

Results flagged for a closer look

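Of the genes described, 28 had a FAT-55 response that differed between WPI and casein by the limma interaction test. Values are the WPI minus the casein response on the log2 scale, and no explanation was tested. The most negative differences were in Cebpb (-2.94), Scand1 (-2.78), Cox11 (-2.46), Nkx2-4 (-2.25) and Tmem158 (-2.23). Hnrnpab and Vstm2l each had -1.92, Mrps34 -1.93, Dmrta2 -1.78, Zfp771 -1.76, Rab5if -1.72 and Pdxp -1.71. Nrtn had -1.52, Tmem238 -1.51, Pcsk1n -1.48, Mocs3 -1.47 and Insm1 -1.40. Sap30l had -1.20, Avp -1.15, Cebpd -1.0, Foxd1 -0.97 and the astrocyte gene Ntsr2 -0.34. The response was higher on WPI for the clock repressor gene Bhlhe40 (0.34), the microglial receptor gene Csf1r (0.29), Sh2b1 (0.27), Slc3a2 (0.26), the GABA-B receptor gene Gabbr1 (0.23) and Acsl6 (0.19). By stem means no gene at all was called higher on WPI, and with TMM scaling 21 of all genes were, so these 6 are not called when stems are the replicates. The casein FAT-20 group includes 3 of the 10 libraries that stood apart, and without those 10 the Avp difference was -0.92 (limma interaction, adjusted p = 0.12).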

How the results depend on the processing

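No paired analysis was possible because the labels tie no mouse or litter across diets and the last digit of an identifier numbers mice within a stem only. The 124 genes described gave 5825 values over 47 alternatives. Of these, 518 were no longer called, 133 became called, and 12, all of genes called in the main fit, turned sign. The remaining 5162 include sign changes of genes not called in the main fit, which were not counted apart. Prkcd, for example, spanned -0.4 to 0.51 and Pmch -0.36 to 0.35. Npy turned to 0.04, Gabbr1 to -0.11, Ntrk2 to -0.18 and Thrb to -0.01 after the trend on GC content and length was removed. With the GC-richest window added, Npy had 0.05, Gabbr1 -0.07, Ntrk2 -0.21, Thrb -0.08, Csf1r -0.02, Gria1 -0.02 and Igf1r -0.03, and Per1 had -0.12 by stem means without the 10 libraries. The causes were not tested.

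The count of higher genes, 4373, was 1232 with only the 23 libraries in the fit, 2033 with TMM, 1258 with edgeR, 1575 with DESeq2, 195 by stem means, 1131 with stem as a random effect, 1343 with the GC and length trend removed, 1376 with the window added, 2052 without the 10 libraries and 1004 by stem means without them. It was 2521 without stem L3C, 1121 without L2D, 2740 without H6F and 3128 to 5083 leaving out 1 library. The count of lower genes, 866, was 465, 1404, 1837, 2323, 266, 436 and 1391 under the first 7 of these, 497 by stem means without the 10, 533 without L2D, 1461 without L4D, 3011 without L4A, 2956 without H4D, 573 without H9A and 669 to 1970 leaving out 1 library.

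On casein the 346 genes called were 227 with no filter, 2486 with edgeR, 2953 with DESeq2, 7 by stem means, 6 with the random effect, 1212 with the trend removed, 1278 with the window, 1033 with the thalamus level and 118 with the length slope as a covariate, 141 without the 10 and 12 by stem means without them. At WPI FAT-40 the 7791 were 25 by stem means, 3247 with the random effect, 3866 with the trend removed, 3891 with the window, 1398 with library weights, 4687 without L3C, 1084 without L2D, 687 without the 10, 24 by stem means without them, 1023 with the slope covariate and 5532 to 8483 leaving out 1 library. The 519 interaction genes were 87, 121 and 1798 by stem means, random effect and weights, 854 without L4A, 792 without H4D, 317 without H9A, 1509 without the 10, 3493 with the slope covariate and 407 to 668 leaving out 1 library.

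The score difference of endothelial cells was 0.18 by stem and 0.12 without the 10, of neurons 0.14 and 0.12, of oligodendrocyte precursors 0.23 and 0.12, with sizes by stem close to those by library. The stem test of 4 against 4 cannot go below 0.029, so its adjusted p says nothing about stability, and without the 10 libraries the adjusted permutation p was 0.084, 0.052 and 0.052. The thalamus difference was 0.42 and called with a pseudocount of 10. Depth limits genes with few reads such as Socs3, Agrp and Sis most.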

Other observations

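Other genes of the hypothalamus moved in each of 6 analyses (all libraries, without the 10, stem means, TMM, edgeR and after removal of the trend), a set of 254 lower and 136 higher genes found after the values were seen. Cpe, which encodes the carboxypeptidase that trims prohormone fragments, had a log2 fold change of -0.42 at a mean normalised count of 36861. The patterning factors Irx3 (-0.55), Irx5 (-0.67) and Sox3 (-0.57) and the adrenergic receptor gene Adrb1 (-0.51) were lower, and each had a casein log2 fold change of at most 0.27 in size. Igfbp5, which binds insulin-like growth factors, was higher at 0.66, as were the endothelial receptor genes Eng (0.64) and Tie1 (0.56). Of the 254 lower genes 89.4% held a window of at least 80% GC, and of the 136 higher genes 5.88%, beside 23.8% of all genes tested.

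Of the 16 genes wholly above FAT-20, Dnajc5 and Syngr3, which encode synaptic vesicle proteins, had log2 fold changes of 0.22 and 0.25, and Ubqln4, an adaptor that carries proteins to the proteasome, had 0.42. Agpat1, an enzyme of phospholipid synthesis, had 0.38. On casein the 16 had a median of 0.04, and 3 were called, with Sis at 3.16 and Mgam at 3.11.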
